A study of Mus musculus with 9 samples.

Results

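Cytosolic ribosomal protein genes encode the proteins of the ribosome that translates the mRNAs of the nuclear genome. They were chosen by name from the deposited expression table of mouse midbrain: symbols that start with Rpl or Rps followed by a number, plus Rpsa, Rplp0, Rplp1 and Rplp2, without pseudogene names and without the Rps6k kinases. The rule found 85 of 24487 rows, 52 for proteins of the large subunit and 33 for proteins of the small subunit. Of these, 77 were counted as genes for the proteins of the ribosome itself. The remaining 8 are paralogues (Rpl3l, Rpl7l1, Rpl10l, Rpl22l1, Rpl36al, Rpl39l, Rps4l and Rps27l), of which Rpl36al encodes the same protein as Rpl36a. Fau, which encodes a small-subunit protein made as a fusion to a ubiquitin-like domain, carries another name and was only set beside them.

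The expression values came from 9 RNA sequencing libraries of mice with a C57BL/6 background, 5 of whole midbrain and 4 of dopaminergic neurons from the midbrain. The labels name no allele, age, sex or treatment for either group. How RNA of dopaminergic neurons was obtained, and whether each library stands for its own mouse or for pooled mice, is not in the labels, so a p-value here reflects only how these libraries vary, which may be technical. The name of the deposited table includes bacTRAP, the usual term for pulling down ribosomes that carry a tagged protein in 1 cell type, and with such a capture RNA on ribosomes would be set against RNA of whole tissue, which cannot be told apart here from a difference between cell types.

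A ribosome is built from a small subunit, which reads the mRNA, and a large subunit, which joins the amino acids and guides the new chain out through a tunnel. Each subunit holds ribosomal RNA and 1 copy of nearly every ribosomal protein, so the proteins are needed in like amounts, and their mRNAs are short and among the most abundant in most cells. Most of these mRNAs start with a run of pyrimidines, the terminal oligopyrimidine tract, through which the mTOR pathway controls their translation. In neurons ribosomes work in the cell body and also in dendrites and axons, where ribosomal protein mRNAs have been found as well.

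The start sites are shown because the pyrimidine run of these mRNAs would lie there. RefSeq promoter sequences of build GRCm38.p6 were matched for 64 of the 85 genes, with 76 start sites. Each line gives 10 bases before and 20 bases from the annotated start, 5′ to 3′, with the start as base 11, and the capitals mark a run of at least 8 C or T on the sense strand that comes within 10 bases of the start. The first 5 genes are among the highest by fold change or level, Rps6 is the protein modified downstream of mTOR, Rpl7a did not differ past the threshold between the groups, and the last 3 genes have no such run.
Rps27 (chr3:90213629-90213658, minus strand): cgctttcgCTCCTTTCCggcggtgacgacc
Rpl34 (chr3:130730318-130730347, minus strand): CTTTTCCTCTTCCggggacggtgctcagag
Rpl35 (chr2:39005112-39005141, minus strand): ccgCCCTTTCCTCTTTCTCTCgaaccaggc
Rpl38 (chr11:114668570-114668599, plus strand): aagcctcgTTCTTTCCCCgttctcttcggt
Rplp2 (chr7:141447641-141447670, plus strand): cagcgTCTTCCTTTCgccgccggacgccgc
Rps6 (chr4:86857348-86857377, minus strand): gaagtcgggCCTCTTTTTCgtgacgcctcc
Rpl7a (chr2:26910797-26910826, plus strand): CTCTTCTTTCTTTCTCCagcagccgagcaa
Rpl26 (chr11:68901556-68901585, plus strand): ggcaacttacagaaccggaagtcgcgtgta
Rpl41 (chr10:128549149-128549178, minus strand): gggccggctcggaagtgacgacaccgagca
Rpl5 (chr5:107900518-107900547, plus strand): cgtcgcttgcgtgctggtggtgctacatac
Such a run was present at 39.5% of the 76 start sites of ribosomal protein genes and at 13.7% of all 32851 start sites in the table. A run of at least 8 A or G in the same place, which is the same search on the other strand, was present at 5.26% and 15.1%. The base at the annotated start was a C at 28.9% and 16.3%. Over the whole 300 bases and both strands, CCGGAAG, the core of sites for ETS family factors, was found in 35.5% and 8.86%, and ATGGCGG, the core of YY1 sites, in 18.4% and 4.05%. TATAAA, the core of a TATA box, was found in 9.21% and 13.6%. On its other strand CCGGAAG reads CTTCCGG, so a match can share its CTTCC with a pyrimidine run, and such matches are descriptions of letters only.

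The 29 genes with a run at the start had a median log2 fold change, dopaminergic neurons over whole midbrain, of 1.39, and the 32 tested genes with a matched start but no run had 1.19. The difference of these medians was not tested. Runs were sought at annotated starts, and the starts used in these libraries were not measured. A run could also lie wholly before the start, outside the mRNA. This split thus does not show which of these mRNAs begin with a pyrimidine tract.

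Values are in FPKM, a level per length of transcript and per depth of library, and without read counts the depth of each library is unknown and no counting interval can be given. The FPKM of all rows added up to between 309275 and 313252 for libraries 1, 3, 4 and 5 of whole midbrain, 409130 for its library 2, and between 506466 and 521822 for dopaminergic neurons. Whole midbrain library 2 stood apart from its group for most ribosomal protein genes, so results are given with and without it. Nearly all whole midbrain values carry more than 6 significant digits and no dopaminergic value does, so any step by the authors behind that difference in form cannot be told apart from the cell type. The labelled cell type was checked by its markers: all 4 dopaminergic markers (Th, Slc6a3, Slc18a2 and Ddc) were higher in the dopaminergic libraries, with a summed level of 3542 to 3939 FPKM against 199 to 229. All 6 oligodendrocyte markers were lower (154 to 259 against 2723 to 3216 FPKM), as were all 6 of astrocytes (20.7 to 28.5 against 321 to 462), all 6 of microglia (4.28 to 8.74 against 112 to 136) and all 7 of other neurons (62.5 to 75.4 against 379 to 422). None of these markers was at 0 in a dopaminergic library, and the part of these cells in the levels below was not tested. In bulk samples like these, more cells of a type and more RNA per cell cannot be told apart.

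Ribosomal protein genes took a larger part of the dopaminergic libraries than of most whole midbrain libraries. Their share of the summed FPKM was 7.25, 11.1, 7.17, 6.46 and 6.98% in whole midbrain libraries 1 to 5 and 11.6, 12.4, 11.4 and 12.9% in dopaminergic libraries 1 to 4. All dopaminergic libraries lay above all whole midbrain libraries, and library 2 lay much closer to the dopaminergic group than to its own. The mean share was 12.1% ± 0.712 (SD, n = 4) against 7.80% ± 1.89 (n = 5), or 6.96% ± 0.358 (n = 4) without library 2. Large-subunit genes summed to 1.60, 1.47, 1.59, 1.62 and 1.61 times the small-subunit genes in whole midbrain and to 1.65, 1.63, 1.70 and 1.69 times in dopaminergic neurons. Library 2 had the lowest ratio, and every dopaminergic ratio was above every whole midbrain ratio, by little.

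**Figure D1:**
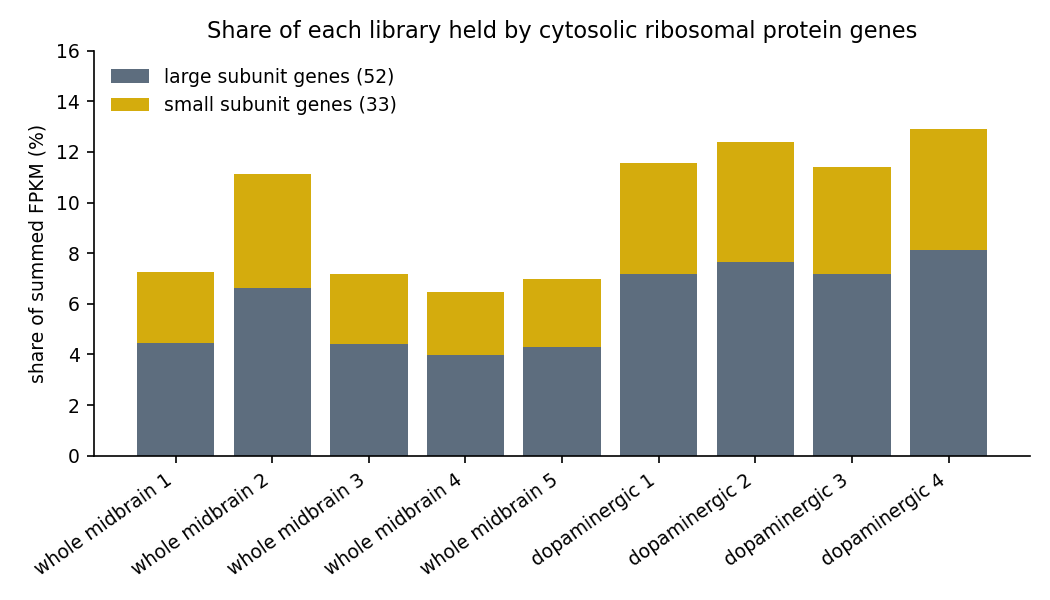
Share of the summed FPKM of each library (%) held by the 52 large-subunit and the 33 small-subunit genes, 1 stacked bar per library. Whole midbrain libraries 1, 3, 4 and 5 sit between 6.46% and 7.25%, library 2 at 11.1% and the dopaminergic libraries between 11.4% and 12.9%.

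The rank of these genes within a library was high in both groups and moved little. Among the 13106 genes tested, the median ribosomal protein gene stood at the 98.7, 98.8, 98.6, 98.5 and 98.6 percentile in whole midbrain libraries 1 to 5 and at the 98.7, 98.9, 98.7 and 98.9 percentile in dopaminergic libraries 1 to 4. The lowest dopaminergic percentile lay below that of library 2, so the groups overlap on this scale. The median level of the same genes was 236, 385, 228, 209 and 229 FPKM in whole midbrain and 531, 610.3, 556 and 639.7 FPKM in dopaminergic neurons, with no overlap. Of the 100 rows with the highest FPKM in a library, 20, 28, 22, 20 and 20 were ribosomal protein genes in whole midbrain and 26, 27, 23 and 28 in dopaminergic neurons.

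Gene by gene, most ribosomal protein genes were higher in the dopaminergic libraries. Of the 85 genes 82 reached a mean of 1 FPKM and were tested, and Rpl10l, Rpl39l and Rpl3l did not. With limma on log2(FPKM + 1) and Benjamini-Hochberg adjustment over all 13106 genes tested (threshold 0.05), 77 rose (38.3% of all genes tested were called higher), 1 fell (36.0% of all genes) and 4 did not pass. The median log2 fold change was 1.21, beside 0.042 over all genes tested, and 59 of the risers were at least 2-fold higher on that scale. By subunit, 47 of 49 large-subunit genes rose (median 1.22) and 30 of 33 small-subunit genes (median 1.20).

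Every dopaminergic library lay above every whole midbrain library for 58 genes (32.6% of all genes tested) and below for 1 (31.8%). Above whole midbrain libraries 1, 3, 4 and 5 alone the count was 79 (40.4%). Without library 2 the test called 79 genes higher (43.6% of all genes tested) and 2 lower (38.4%), with a median log2 fold change of 1.40. Called higher in both fits were 77 genes, and the share of all genes called higher in both is not given.

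How far the group rose depended on the scaling. Because the dopaminergic libraries hold more summed FPKM, rescaling each library to the same total (TPM) moved the median of all genes tested to -0.60. On that scale 52 ribosomal protein genes were higher (15.8% of all genes) and 5 lower (58.6%), with a median of 0.51, which is 1.11 above that of all genes, close to the 1.17 without rescaling. Quantile normalization, which forces the same distribution on every library, left 31 higher (38.1%) and 10 lower (31.3%), with a median of 0.24 beside 0.11 for all genes. After a loess correction for transcript length 38 were higher (35.6%) and 4 lower (35.2%), with a median of 0.45 beside 0.028. After quantile normalization the share called higher was thus near that of all genes. With library 2 left out as well, TPM gave 71 higher (19.1%) and 6 lower (65.9%), and length correction gave 65 higher (40.6%) and 7 lower (38.6%), with a median of 0.44.

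**Figure D2:**
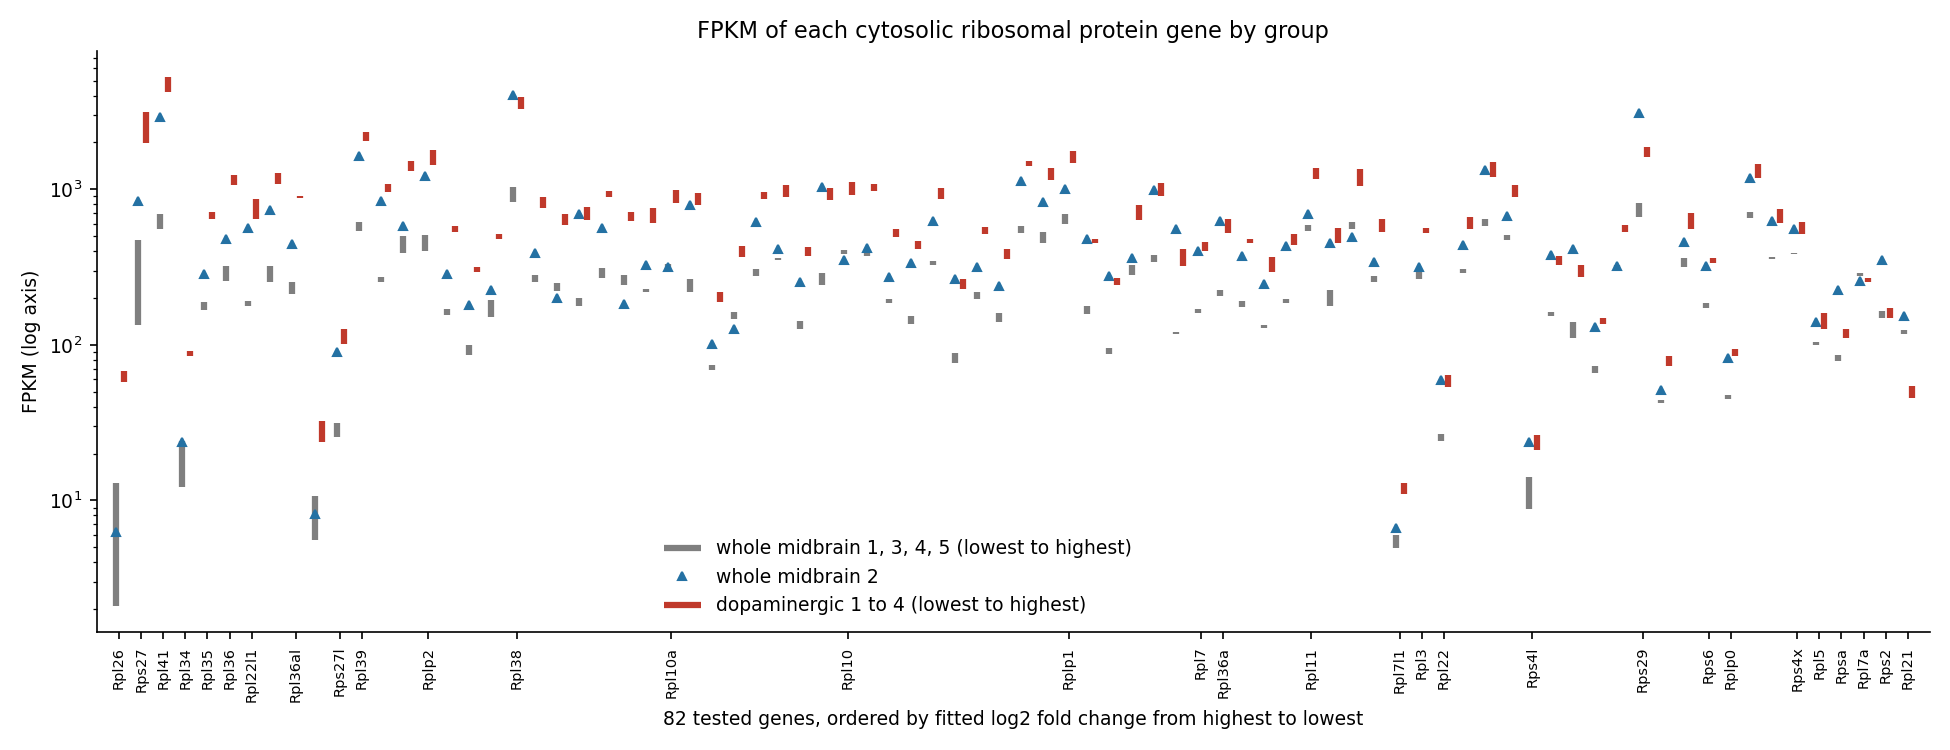
FPKM (log axis) of the 82 tested genes, ordered by fitted log2 fold change, with labels for the genes given with full values; grey bars span whole midbrain libraries 1, 3, 4 and 5, blue triangles show whole midbrain library 2 and red bars span the 4 dopaminergic libraries. For 79 genes the red bar lies above the grey bar, and library 2 lies above every dopaminergic library for 11 genes.

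The largest rise was that of Rpl26 (chr11:68901566-68904534, mm10), a large-subunit protein at the tunnel exit that also binds p53 mRNA. It stood at 12.99, 6.22, 6.65, 2.11 and 10.97 FPKM in whole midbrain libraries 1 to 5 and at 68.3, 61.3, 58.8 and 57.5 FPKM in dopaminergic libraries 1 to 4. Every dopaminergic library was above every whole midbrain library, among which library 4 was lowest and library 1 highest (log2 fold change 3.0, SE 0.37, limma adjusted p = 3.21e-05). Rpl26 kept this direction after length correction (2.07) and on the TPM scale (2.45). Annotated transcripts of 4 other genes match Rpl26 over at least 100 bases at 98% identity or more, called near-identical copies from here on, and reads may be split among them. Rpl26 was low for a ribosomal protein gene in both groups. The median of these genes was 209 FPKM or more in each whole midbrain library and 531 FPKM or more in each dopaminergic library.

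Rps27 (chr3:90212667-90213648), a zinc finger protein of the small subunit, had the next largest rise but shares its sequence with a second gene. Its row stood at 281, 847, 473, 134 and 369 FPKM in whole midbrain libraries 1 to 5 and at 2552, 3123, 1973 and 2451 FPKM in dopaminergic libraries 1 to 4. The groups did not overlap (log2 fold change 2.81, SE 0.44, limma adjusted p = 1.86e-04), yet whole midbrain varied widely, with library 4 lowest and library 2 highest. The coding sequence of Rps27rt, an intronless copy, was identical to that of Rps27 in all 255 bases, printed here from the GENCODE transcript because no read within it can tell the genes apart.
Rps27 and Rps27rt: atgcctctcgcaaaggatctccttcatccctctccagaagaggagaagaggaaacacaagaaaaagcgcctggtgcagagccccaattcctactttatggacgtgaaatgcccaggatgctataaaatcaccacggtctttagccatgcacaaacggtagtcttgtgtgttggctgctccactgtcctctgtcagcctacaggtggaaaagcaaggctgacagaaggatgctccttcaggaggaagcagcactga
Rps27rt stood at 956, 2301, 732, 943 and 740.0 FPKM in whole midbrain libraries 1 to 5 and at 1125, 1054, 1651 and 2036 FPKM in dopaminergic libraries 1 to 4. The groups overlapped for that row (log2 fold change 0.46, SE 0.35, limma adjusted p = 0.247). Rps27 took 22.7, 26.9, 39.3, 12.4 and 33.3% of the sum of both rows in whole midbrain and 69.4, 74.8, 54.4 and 54.6% in dopaminergic neurons. The sum of both rows was 1238, 3149, 1205, 1077 and 1109 FPKM against 3677, 4176, 3624 and 4487 FPKM. Only library 2 came near the dopaminergic values, and the sum rose by a log2 fold change of 1.49 (SE 0.30, limma adjusted p = 0.00122), which is smaller than for the single row and closer to the median gene.

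Rpl41 (chr10:128548110-128549168) encodes the smallest ribosomal protein, a basic peptide of 25 codons, and had the highest level in the dopaminergic libraries. Its whole coding sequence, with the stop codon, is short enough to print.
Rpl41: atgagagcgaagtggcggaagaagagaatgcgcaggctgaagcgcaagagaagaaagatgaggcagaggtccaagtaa
Rpl41 stood at 696, 2921, 663, 554 and 619.8 FPKM in whole midbrain libraries 1 to 5 and at 4215, 4421, 4546 and 5259 FPKM in dopaminergic libraries 1 to 4. Library 2 was far above every other whole midbrain library, and still below every dopaminergic library (log2 fold change 2.42, SE 0.44, limma adjusted p = 5.61e-04). Without library 2 its log2 fold change was 2.86 (limma adjusted p = 2.70e-10).

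Rpl34 (chr3:130726827-130730398), a large-subunit protein, stood at 24.3, 23.8, 12.2, 16.1 and 20.7 FPKM in whole midbrain libraries 1 to 5 and at 85.0, 90.8, 86.1 and 86.8 FPKM in dopaminergic libraries 1 to 4. Library 2 was here within its group, and no dopaminergic value overlapped (log2 fold change 2.15, SE 0.18, limma adjusted p = 1.82e-06). A row named for a pseudogene of it, Rpl34-ps1, held more FPKM than Rpl34 in every library: 115, 268, 118, 107 and 105 FPKM in whole midbrain and 398, 432, 404 and 450.2 FPKM in dopaminergic neurons. Summed, both rows rose by 1.73 (SE 0.24, limma adjusted p = 7.09e-05).

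Rpl35 (chr2:39001581-39005131), a protein at the tunnel exit, stood at 181, 287, 189, 167 and 188 FPKM in whole midbrain libraries 1 to 5 and at 710.5, 700.0, 641 and 717 FPKM in dopaminergic libraries 1 to 4. Rpl36 (chr17:56613395-56614246), another large-subunit protein, stood at 321, 479, 310.2, 256 and 306 FPKM in whole midbrain libraries 1 to 5 and at 1065, 1103, 1113 and 1234 FPKM in dopaminergic libraries 1 to 4. For both genes library 2 was the highest of its group and all dopaminergic libraries lay above it (log2 fold change 1.80, SE 0.15, limma adjusted p = 2.25e-06 for Rpl35, and log2 fold change 1.78, SE 0.17, limma adjusted p = 4.61e-06 for Rpl36). These 2 genes had 3 near-identical copies each.

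Rpl21 (chr5:146832890-146837032), a large-subunit protein, was the one gene that fell. It stood at 124, 154, 125, 121 and 118 FPKM in whole midbrain libraries 1 to 5 and at 45.5, 51.3, 47.4 and 54.1 FPKM in dopaminergic libraries 1 to 4. Every dopaminergic library was below every whole midbrain library, and library 2 was again the highest (49.6 ± 3.87 FPKM, n = 4, against 128 ± 14.5 FPKM, n = 5; log2 fold change -1.35, SE 0.10, limma adjusted p = 6.61e-07). The fall was larger on the TPM scale (-2.06) and after length correction (-1.61). Rpl21 also had the most near-identical copies of any member, 17, and what reads went to them was not tested.

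Of the genes that did not pass, Rpl7a and Rps2 had the next most copies, 11 each, level with each other and above Rpl17, Rpl29 and Rpl31 at 10. Rpl7a (chr2:26910807-26913311), a large-subunit protein, stood at 291, 257, 290.3, 276 and 289.7 FPKM in whole midbrain libraries 1 to 5 and at 254, 265, 268 and 269 FPKM in dopaminergic libraries 1 to 4. The groups overlapped, with library 2 the lowest of whole midbrain (log2 fold change -0.088, SE 0.08, limma adjusted p = 0.339). Without library 2 Rpl7a was called lower (-0.12, limma adjusted p = 0.0179). Rps2 (chr17:24720063-24721927), a small-subunit protein of the mRNA entry channel, stood at 164, 349, 161, 149.9 and 164 FPKM in whole midbrain libraries 1 to 5 and at 148, 156, 154 and 173 FPKM in dopaminergic libraries 1 to 4. Apart from library 2, which was well above the rest, the groups lay in the same range (log2 fold change -0.24, SE 0.23, limma adjusted p = 0.35). After length correction both were called lower (log2 fold change -0.96, limma adjusted p = 1.43e-06 for Rpl7a, and -1.05, limma adjusted p = 0.00175 for Rps2). Across the 85 genes 71 had at least 1 near-identical copy, and the log2 fold change and the number of copies had a Pearson correlation of -0.45 and a Spearman correlation of -0.17 over the 82 tested genes, which share libraries. The 8 tested genes with neither a copy nor an overlap of exons with another gene all rose (median 1.17), beside 38.3% of all genes tested.

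Rpsa and Rps29 did not pass with all libraries and passed without library 2. Rpsa (chr9:120127766-120132369), a small-subunit protein that also serves as a laminin receptor, stood at 84.8, 225, 81.8, 78.6 and 85.5 FPKM in whole midbrain libraries 1 to 5 and at 110.4, 122, 116 and 126 FPKM in dopaminergic libraries 1 to 4. Library 2 was above every dopaminergic library and the rest of the group was below all of them (log2 fold change 0.23, SE 0.28, limma adjusted p = 0.483). Rps29 (chr12:69157722-69159186), a zinc-binding protein of the small-subunit head, stood at 817, 3102, 737, 661 and 731 FPKM in whole midbrain libraries 1 to 5 and at 1651, 1748, 1621 and 1879.7 FPKM in dopaminergic libraries 1 to 4, with the same pattern (log2 fold change 0.81, SE 0.41, limma adjusted p = 0.097). Without library 2, Rpsa had a log2 fold change of 0.51 (limma adjusted p = 4.07e-06) and Rps29 of 1.23 (limma adjusted p = 3.38e-08). On the TPM scale without library 2 the sign of Rpsa turned to -0.27 (limma adjusted p = 4.75e-04).

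Rpl38 (chr11:114668543-114672331), a large-subunit protein for which a role in the translation of Hox mRNAs is known, had the highest mean level in whole midbrain. It stood at 1037, 4064, 941, 826 and 937 FPKM in whole midbrain libraries 1 to 5 and at 3473, 3482, 3261 and 3948 FPKM in dopaminergic libraries 1 to 4. Library 2 was above every dopaminergic library, and the rest of whole midbrain was far below (log2 fold change 1.5, SE 0.42, limma adjusted p = 0.0086, and 1.92 without library 2). After length correction it did not pass (limma adjusted p = 0.187), except without library 2 (0.92, limma adjusted p = 8.38e-07).

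The stalk of the large subunit recruits the elongation factors. All 4 of its genes rose (median 1.13), beside 38.3% of all genes tested. Rplp0, its base, stood at 45.5, 82.8, 47.8, 45.2 and 44.7 FPKM in whole midbrain libraries 1 to 5 and at 86.8, 84.5, 89.6 and 94.7 FPKM in dopaminergic libraries 1 to 4. The groups did not overlap, although library 2 came within reach of the lowest dopaminergic library (log2 fold change 0.77, SE 0.17, limma adjusted p = 0.00216). Rplp1 stood at 691, 1004, 647, 601 and 657 FPKM in whole midbrain libraries 1 to 5 and at 1468, 1586, 1525 and 1759 FPKM in dopaminergic libraries 1 to 4, and Rplp2 at 506, 1215, 435, 400.4 and 434 FPKM in whole midbrain libraries 1 to 5 and at 1433, 1611, 1639.8 and 1792 FPKM in dopaminergic libraries 1 to 4. Both acidic partners, which stand on Rplp0 as dimers, had levels many times that of Rplp0 and did not overlap between groups (log2 fold change 1.16, SE 0.16, limma adjusted p = 8.63e-05 for Rplp1, and log2 fold change 1.57, SE 0.30, limma adjusted p = 7.74e-04 for Rplp2). After length correction Rplp0 and Rplp1 did not pass (limma adjusted p = 0.25 and 0.166), but without library 2 both did (0.29 and 0.22, limma adjusted p = 1.98e-04 and 0.00919).

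Rpl5 and Rpl11 form a particle with the 5S ribosomal RNA, which binds Mdm2 when assembly of ribosomes fails. Rpl5 stood at 102, 139.7, 103, 99.2 and 105 FPKM in whole midbrain libraries 1 to 5 and at 127, 147, 131 and 159.8 FPKM in dopaminergic libraries 1 to 4. Its groups overlapped through library 2, and its rise was small (log2 fold change 0.37, SE 0.12, limma adjusted p = 0.0183). Without dopaminergic library 4 it did not pass (0.30, limma adjusted p = 0.0596). Rpl11 stood at 554, 695, 589, 539 and 567 FPKM in whole midbrain libraries 1 to 5 and at 1170.3, 1258, 1229 and 1369 FPKM in dopaminergic libraries 1 to 4, with no overlap (log2 fold change 1.10, SE 0.12, limma adjusted p = 1.07e-05). On the TPM scale the 2 partners went apart, with Rpl5 lower (-0.33, limma adjusted p = 0.00448) and Rpl11 higher (0.39, limma adjusted p = 8.00e-04). After quantile normalization the log2 fold change of both was under 0 (-0.37 for Rpl5 and -0.03 for Rpl11).

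Of the proteins that line the exit tunnel or its mouth (Rpl4, Rpl17, Rpl19, Rpl22, Rpl23a, Rpl26, Rpl31, Rpl35 and Rpl39), all 9 rose (median 1.05). Genes in which loss of 1 copy causes Diamond-Blackfan anaemia in people numbered 21, of which 20 rose (median 1.39), and Rps29 did not pass. After length correction 6 of the 9 tunnel genes and 12 of the 21 anaemia genes were called higher, beside 35.6% of all genes tested (38.3% before the correction).

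Rps6, the small-subunit protein phosphorylated downstream of mTOR, stood at 184, 319, 186, 177 and 172 FPKM in whole midbrain libraries 1 to 5 and at 337, 357, 336 and 361 FPKM in dopaminergic libraries 1 to 4. Library 2 fell just short of the dopaminergic values (log2 fold change 0.78, SE 0.17, limma adjusted p = 0.00211), and the sign turned after length correction (-0.12, limma adjusted p = 0.565) and after quantile normalization (-0.13). Rpl10a (chr17:28328471-28331033), the protein that usually carries the tag in bacTRAP mice, stood at 327, 315, 325, 298 and 329 FPKM in whole midbrain libraries 1 to 5 and at 813, 844, 813 and 988 FPKM in dopaminergic libraries 1 to 4. Whole midbrain was tight and library 2 did not stand out, and the groups did not overlap (log2 fold change 1.43, SE 0.10, limma adjusted p = 4.83e-07). That rise lay between the quartiles of the tested ribosomal protein genes, which were 0.93 and 1.48, and whether a transgene adds to the row was not tested.

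Rps27a, a small-subunit protein made as a fusion to ubiquitin, rose by 1.47 on the log2 scale and overlapped only through library 2. Fau stood at 193, 477, 181, 161 and 188 FPKM in whole midbrain libraries 1 to 5 and at 722, 702, 747 and 810.3 FPKM in dopaminergic libraries 1 to 4, with library 2 the highest (log2 fold change 1.76, SE 0.28, limma adjusted p = 2.31e-04). Gnb2l1, which encodes the ribosome-bound scaffold RACK1, rose less (log2 fold change 0.46, SE 0.12, limma adjusted p = 0.0059).

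The remaining 51 tested genes all rose, with log2 fold changes from 0.74 to 1.76 (median 1.24). Their means ran from 8.16 to 785 FPKM in whole midbrain and from 28.0 to 1458 FPKM in dopaminergic neurons. For 38 of them every dopaminergic library lay above every whole midbrain library, as for 32.6% of all genes tested. Among the genes for proteins of the ribosome itself, the mean FPKM spanned 165-fold in dopaminergic neurons, from Rpl30 to Rpl41. Their order was much the same in both groups: over the 82 genes the group means had a Pearson correlation of 0.94 on the log2 scale.

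Several ribosomal proteins have a paralogue, a second gene for a like protein that can stand in for the parent in some cells. Ratios within a library do not depend on its depth, but they were not corrected for transcript length. Of 8 pairs, 5 had both genes tested, and for these the log2 ratio was compared between groups with a two-sided exact permutation test over libraries, whose smallest possible p is 0.0159. Rpl10l, Rpl39l and Rpl3l were near the floor: Rpl10l was listed at 0 in all 9 libraries, Rpl39l stood at 0, 0.935, 0, 0.271 and 0.150 FPKM in whole midbrain and 0, 0.316, 0 and 0.136 FPKM in dopaminergic neurons, and Rpl3l at 0.355, 0.0367, 0.439, 0.437 and 0.322 and 1.49, 1.23, 1.17 and 0.722 FPKM. Their parents were abundant, with Rpl39 at 2174 ± 149 FPKM in dopaminergic neurons (SD, n = 4), Rpl10 at 1006 ± 79.2 FPKM and Rpl3 at 552 ± 17.8 FPKM, and all 3 rose (1.59, 1.38 and 0.94 on the log2 scale), although Rpl3 turned to -0.14 after quantile normalization.

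By FPKM Rpl22l1 stood above Rpl22 in every library, and by a larger ratio in dopaminergic neurons. Rpl22 stood at 25.5, 59.8, 26.6, 24.0 and 26.7 FPKM in whole midbrain libraries 1 to 5 and at 53.9, 59.6, 58.1 and 63.9 FPKM in dopaminergic libraries 1 to 4, and Rpl22l1 at 179, 562, 190.0, 177 and 182 FPKM in whole midbrain libraries 1 to 5 and at 795, 866, 643 and 839 FPKM in dopaminergic libraries 1 to 4. The ratio of Rpl22l1 to Rpl22 was 7.02, 9.40, 7.14, 7.39 and 6.83 in whole midbrain libraries 1 to 5 and 14.7, 14.5, 11.1 and 13.1 in dopaminergic libraries 1 to 4. All dopaminergic ratios were above all whole midbrain ratios (log2 ratio changed by 0.84, exact p = 0.0159, 0.0265 after Benjamini-Hochberg adjustment over the 5 pairs). After quantile normalization the change was 0.19 (exact p = 0.0635). The transcript of Rpl22l1 had 553 bases and that of Rpl22 between 2000 and 3000. Other genes of 500 to 750 bases had a median log2 fold change of 1.07, and those of 2000 to 3000 bases one of 0.14. What part length had in the ratio or in its change was not tested. The coding sequences of the pair are 74.5% identical over 365 aligned bases, with no identical run longer than 26 bases, which is shorter than the reads. Rpl22l1 also has 2 near-identical copies, and its exons overlap those of Gm33051 on the opposite strand by 159 bases. What reads went to these was not tested.

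Rpl36a and Rpl36al encode the same protein from the X chromosome and chromosome 12. Their coding sequences, from GENCODE, have the same length and differ at 39 of 321 bases, 35 of them at the last base of a codon. The first 150 bases are shown, and capitals mark the 23 that differ.
Rpl36a: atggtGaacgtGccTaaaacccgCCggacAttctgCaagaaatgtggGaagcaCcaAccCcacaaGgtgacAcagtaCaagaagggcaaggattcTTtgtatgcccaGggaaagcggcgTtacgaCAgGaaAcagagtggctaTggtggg
Rpl36al: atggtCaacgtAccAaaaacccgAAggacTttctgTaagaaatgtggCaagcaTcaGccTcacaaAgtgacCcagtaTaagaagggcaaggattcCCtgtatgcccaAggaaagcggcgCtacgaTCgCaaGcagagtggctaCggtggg
No stretch of more than 24 bases is the same in both coding sequences, and the reads of the study were longer. Rpl36al also has 1 near-identical copy, and its exons overlap those of Gm49383 on the same strand by 332 bases. What reads went to these was not tested. Rpl36a stood at 218, 628, 224, 205 and 209 FPKM in whole midbrain libraries 1 to 5 and at 529, 647, 525 and 634 FPKM in dopaminergic libraries 1 to 4, and Rpl36al at 255, 448, 231, 214 and 233 FPKM in whole midbrain libraries 1 to 5 and at 877, 907, 891 and 881 FPKM in dopaminergic libraries 1 to 4. The ratio of Rpl36al to Rpl36a was 1.17, 0.713, 1.03, 1.04 and 1.12 in whole midbrain libraries 1 to 5 and 1.66, 1.40, 1.70 and 1.39 in dopaminergic libraries 1 to 4. Library 2 was the only one in which Rpl36a was above Rpl36al, and all dopaminergic ratios lay above all others (log2 ratio changed by 0.61, exact p = 0.0159, 0.0265 after Benjamini-Hochberg adjustment over the 5 pairs). With each library in turn left out the change ranged from 0.49 to 0.67.

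Rps27l, a target of p53, was a minor form beside Rps27. It stood at 27.9, 89.6, 29.0, 25.4 and 31.4 FPKM in whole midbrain libraries 1 to 5 and at 105, 118, 102 and 126 FPKM in dopaminergic libraries 1 to 4. Its ratio to the Rps27 row was 0.0992, 0.106, 0.0614, 0.190 and 0.0849 in whole midbrain libraries 1 to 5 and 0.0412, 0.0379, 0.0517 and 0.0516 in dopaminergic libraries 1 to 4, lower in all dopaminergic libraries (log2 ratio changed by -1.18, exact p = 0.0159, 0.0265 after Benjamini-Hochberg adjustment over the 5 pairs). Against Rps27 and the identical Rps27rt together, the ratio was 0.0225, 0.0284, 0.0241, 0.0236 and 0.0283 in whole midbrain and 0.0286, 0.0284, 0.0282 and 0.0282 in dopaminergic neurons. The dopaminergic ratios then lay at the upper end of the whole midbrain ratios, the change had the opposite sign and it did not pass (log2 ratio 0.13, exact p = 0.222).

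Rpl7l1, which works in ribosome assembly, stood at 6.00, 6.62, 5.08, 4.93 and 5.50 FPKM in whole midbrain libraries 1 to 5 and at 12.8, 12.3, 10.9 and 12.9 FPKM in dopaminergic libraries 1 to 4. Its parent Rpl7 stood at 166, 399, 171, 160.1 and 167 FPKM in whole midbrain libraries 1 to 5 and at 441, 435, 403 and 459.6 FPKM in dopaminergic libraries 1 to 4. Both rose (log2 fold change 1.0, SE 0.094, limma adjusted p = 4.45e-06 for Rpl7l1, and log2 fold change 1.13, SE 0.25, limma adjusted p = 0.00214 for Rpl7), and their ratio did not pass (log2 ratio changed by -0.13, exact p = 0.667, 0.667 after Benjamini-Hochberg adjustment over the 5 pairs). Without library 2 that ratio changed by -0.33 (exact p = 0.0286), and after quantile normalization by 0.89 (exact p = 0.0159). Rps4l, a paralogue of the X-linked Rps4x, stood at 11.95, 23.7, 14.05, 9.76 and 8.74 FPKM in whole midbrain libraries 1 to 5 and at 25.7, 21.01, 26.5 and 23.3 FPKM in dopaminergic libraries 1 to 4. Rps4x stood at 383, 556, 385, 389 and 382 FPKM in whole midbrain libraries 1 to 5 and at 528, 595, 519 and 612 FPKM in dopaminergic libraries 1 to 4. The groups overlapped for both genes through library 2, and the ratio did not pass (log2 ratio changed by 0.42, exact p = 0.0952, 0.119 after Benjamini-Hochberg adjustment over the 5 pairs), except after quantile normalization (change 1.36, exact p = 0.0159). Rps4x rose little (log2 fold change 0.44, SE 0.14, limma adjusted p = 0.0137) and was called lower on the TPM scale (-0.26, limma adjusted p = 0.0142).

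**Figure D3:**
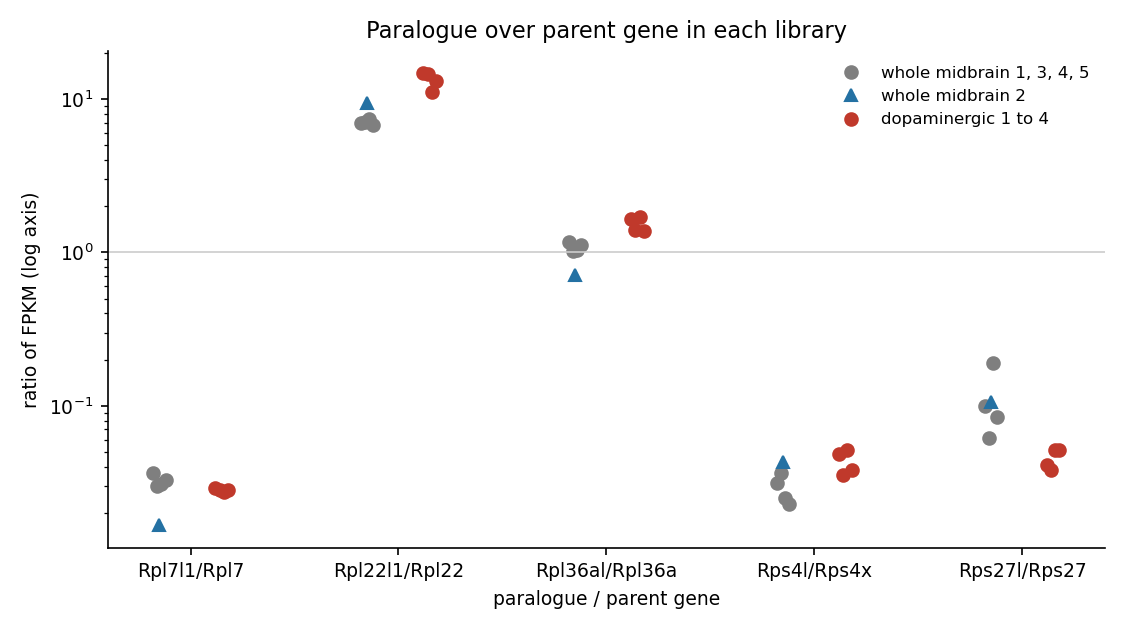
Ratio of the FPKM of a paralogue to that of its parent gene (log axis) in each library, for the 5 pairs with both genes tested. Rpl22l1 is above Rpl22 in every library, with dopaminergic ratios of 11.1 to 14.7, and Rps27l, Rps4l and Rpl7l1 lie below a ratio of 1 in every library.

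Whole midbrain library 2 stood above the rest of its group for most of these genes. It was the highest of its group for 71 of the 82 tested genes and the lowest for 6. Its level was a median of 1.79 times the mean of libraries 1, 3, 4 and 5, in a range from 0.685 to 4.70 times, and at least 2 times for 33 genes. For 11 genes it was above every dopaminergic library. Shares over all genes tested are not given for these counts, so they cannot show whether ribosomal protein genes differ from genes in general. The FPKM of all rows in library 2 also summed to more than in the rest of its group (409130 against 309275 to 313252). Other genes of 500 to 750 bases had a median excess of 0.78 in log2(FPKM + 1). Over the 82 genes the difference of library 2 from its group and that of the dopaminergic libraries from the same 4 libraries had a Pearson correlation of 0.32, a description in which both differences share those 4 libraries. By log2 level library 2 had Pearson correlations of 0.896 to 0.907 with the dopaminergic libraries and 0.913 to 0.926 with its own group. By rank the order was the other way, with Spearman correlations of 0.846 to 0.868 and 0.788 to 0.824. The remaining whole midbrain libraries had Pearson correlations of 0.884 to 0.937 with the dopaminergic libraries and 0.981 to 0.996 among themselves, and the dopaminergic libraries 0.996 to 0.999 among themselves. The summed dopaminergic markers of library 2 (223 FPKM) lay within the range of its group, while its red blood cell markers (359.5 FPKM) and endothelial markers (108 FPKM) were the highest of any library. Its markers of oligodendrocytes (3216 FPKM) and other neurons (422 FPKM) were also the highest of its group, and its astrocyte markers (321 FPKM) the lowest. Their part in the ribosomal protein levels was not tested.

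**Figure D4:**
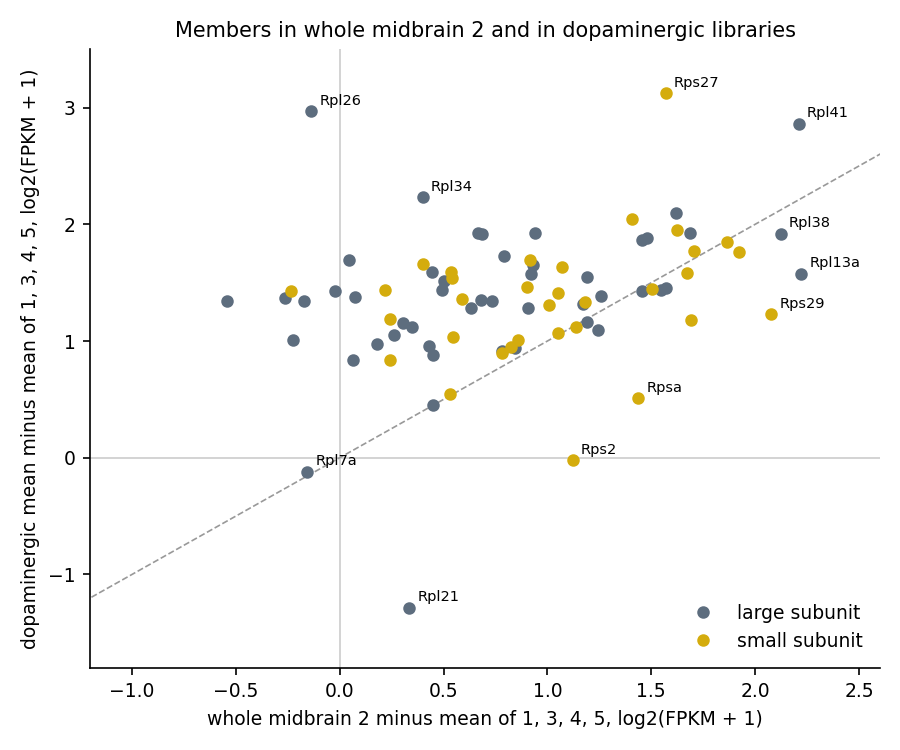
Each point is 1 of the 82 tested genes: on the x axis whole midbrain library 2, on the y axis the mean of the dopaminergic libraries, both as the difference from the mean of whole midbrain libraries 1, 3, 4 and 5 in log2(FPKM + 1), with equality as a dashed line. Rpl26 and Rpl34 lie high on the y axis only, Rpl38, Rpl13a, Rps29, Rpsa and Rps2 lie below the dashed line, and Rpl21 is low on the y axis.

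The difference between groups and the excess of library 2 both varied with transcript length, which differs between these genes and most others: the median tested ribosomal protein gene had a transcript of 834 bases, and the median over all genes tested with a length was 3062. Over the 82 genes log2 fold change and log2 length had a Pearson correlation of -0.42. Between 500 and 750 bases 24 ribosomal protein genes had a median log2 fold change of 1.48 and 290 other genes one of 1.07. Between 750 and 1000 bases the values were 1.09 for 24 and 1.01 for 400 genes, and between 1000 and 1500 bases 1.18 for 14 and 0.61 for 1118. The medians of the other genes were thus close to those of the ribosomal protein genes between 750 and 1000 bases and lower in both neighbouring bins. Up to 500 bases the 203 other genes were on the opposite side of 0 (median -1.08), beside 1.38 for 9 ribosomal protein genes. Rows of small RNA were not taken out of these bins or out of the length correction. How many of the 203 they make up is not given. The excess of library 2 over its group ran from 0.78 in other genes of 500 to 750 bases to -0.21 in those over 6000 bases, was -0.059 in those up to 500 bases, and in ribosomal protein genes of 500 to 750 bases it was 0.86. RNA integrity values are not part of the labels, and a part of RNA quality or fragment size in these trends was not tested.

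**Figure D5:**
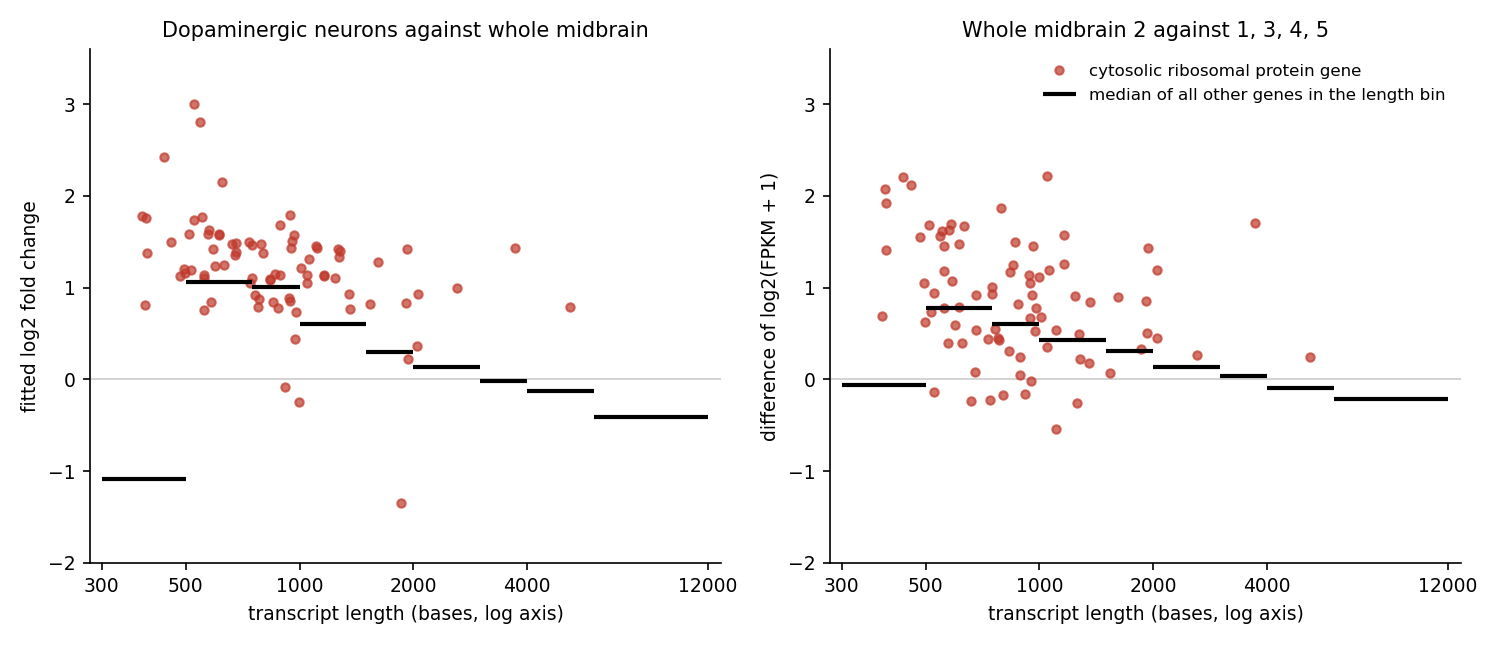
Left, fitted log2 fold change of dopaminergic neurons over whole midbrain, and right, whole midbrain library 2 minus the mean of libraries 1, 3, 4 and 5, both against transcript length (bases, log axis). Points are the 82 tested ribosomal protein genes and black bars the medians of all other tested genes in 9 length bins, the first and last of which are open-ended. Bars fall from 1.07 at 500 to 750 bases on the left and from 0.78 on the right.

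Other lists of genes were set beside these, against 38.3% of all genes called higher, 36.0% lower and a median of 0.042, and no difference between lists was tested. Of 77 genes for proteins of the mitochondrial ribosome 73 rose (median 1.35, or 0.69 on the TPM scale and 0.80 after length correction), led by Mrpl54 (2.63) and Mrps12 (2.26). Of 37 proteasome subunits 29 rose (median 0.75), led by Psmb10 (1.72) and Psmb1 (1.57). Of 54 initiation and elongation factors 36 rose and 6 fell (median 0.58), with Eef1e1 (1.88) and Eif5a (1.69) at the top and Eif2s3y (-1.56) and Eif3a (-1.05) at the bottom. Eif2s3y is Y-linked and the labels name no sex, and a part of sex in its fall was not tested. Of 67 factors that assemble ribosomes 28 rose and 11 fell (median 0.13), a share of risers and a median near those of all genes, with Nop10 (2.33) and Nhp2 (1.91), partners in the particle that makes pseudouridine, at the top and Noc2l (-2.82) and Bms1 (-1.12) at the bottom. On the TPM scale the medians of the last pair of lists were -0.10 and -0.54, beside -0.60 for all genes.

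Genes without an Rpl or Rps name whose mRNAs are known to start with a pyrimidine tract had a lower median. Of 19 such genes, most of them translation factors, 12 rose and 1 fell (median 0.59), beside 38.3% and 36.0% of all genes tested. Fau rose most, and the one that fell was Pabpc1, the poly(A)-binding protein (log2 fold change -0.31, SE 0.088, limma adjusted p = 0.00888). On the TPM scale 2 of the 19 were higher and 6 lower, beside 15.8% and 58.6% of all genes.

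Ribosomal protein genes also share a trait in their introns, where many carry small nucleolar RNAs, the guides that modify ribosomal RNA. By the GENCODE annotation 30 of the 85 genes (35.3%) hold 58 of them on the same strand, beside 2.08% of all tested genes. Of the 30 hosts 26 rose (median log2 fold change 1.12) and of the 52 tested genes without one 51 (median 1.32), beside 38.3% of all genes tested. Rpl21, which fell, and Rps2, Rpl7a and Rpsa, which did not pass, were hosts, while Rps29 was not, and the difference between hosts and other genes was not tested.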

How the data were processed

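Gene expression was measured in 9 mouse RNA sequencing libraries, 5 of whole midbrain and 4 of midbrain dopaminergic neurons. FPKM were made by the authors with TopHat2 2.0.8 and Cufflinks 2.1.1 on mm10, per the submitters' processing notes, and the gene annotation and the handling of strand and of reads with several matches were not given in the sources used here. With reads of 1 gene shared among copies, FPKM of single copies are uncertain. Groups were taken from the labels. The members and lists were chosen with earlier results of these data known.

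FPKM as deposited were tested as log2(FPKM + 1) with limma 3.58.1 (R 4.3.3, mean-variance trend), with a filter of a mean of at least 1 FPKM, 13106 genes and Benjamini-Hochberg adjustment at 0.05. Fold changes on this scale understate those of low genes. Ratios of paralogues were tested by exact permutation (SciPy 1.17.1). Genes given with full values were the 6 passing ones with the largest rise, all that fell or did not pass, the 3 with the highest mean in each group, the paralogue pairs, Rplp0, Rplp1, Rplp2, Rpl5, Rpl11, Rps6, Rpsa and Rpl10a, and in other lists the 2 with the largest rise and the 2 with the largest fall among those that passed. Transcript lengths, GC content, copies, coding sequences and small nucleolar RNAs came from GENCODE M21 (GRCm38), in which 94.7% of the tested genes had a length. TPM left out 1284 rows of small, ribosomal and mitochondrial RNA. The alternatives were other pseudocounts and filters, quantile, upper-quartile, median and TPM scaling, library weights, a replicate block, length and GC correction and leaving out each library. Sums with a near-identical copy, the settings of the paralogue ratios and the settings that left out library 2 together with length correction or TPM were chosen after seeing the data. The limma script was tested on simulated data of 13106 genes with 200 changed. It recovered 97% of those changed by 1 and 100% of those changed by 2 on the log2 scale, with 10 false calls. These figures hold for the simulated spread only. For ribosomal protein genes in whole midbrain the SD was a median of 31.5% of the mean, and 4.79% without library 2. Recovery and false calls in the fit that includes library 2 thus cannot be read from the simulation.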

Additional observations from a re-analysis of the deposited data

Results flagged for a closer look

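In whole midbrain library 2 the value stood farther from the other 4 libraries of its group than Dixon's 95% limit for 20 genes and for the summed share, out of 64 groups of libraries examined for named genes and shares, and in each case it was the highest. Chance alone flags about 1 in 20 groups. Among the genes with larger rises, library 2 stood at 2921 FPKM for Rpl41 and 287 for Rpl35. For the gene that fell, Rpl21, it stood at 154 FPKM, and for genes that did not pass at 3102 for Rps29, 225 for Rpsa and 349 for Rps2. Rpl38 stood at 4064 FPKM, and of the stalk proteins Rplp0 at 82.8, Rplp1 at 1004 and Rplp2 at 1215. Rpl5 stood at 139.7 FPKM and Rps6 at 319. Of the paralogue pairs, Rpl22 and Rpl22l1 stood at 59.8 and 562 FPKM, Rpl36a and Rpl36al at 628 and 448, Rpl7 at 399, Rpl39 at 1637, Rps4x at 556 and Rps27l at 89.6. The share of the summed FPKM held by ribosomal protein genes was 11.1% there. Over all 82 tested ribosomal protein genes library 2 was the one set apart for 60, and dopaminergic library 4 for 3. The shares over all genes tested are not given, so these counts cannot be set against genes in general.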

How the results depend on the processing

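Under every alternative run more ribosomal protein genes were higher than lower and their median log2 fold change was above 0, while the size depended most on scaling and length. There were 31 higher, 10 lower and median 0.24 after quantile normalization, 2 lower with upper-quartile scaling, 5 lower and median 0.51 with TPM, 2 lower with library weights, 38 higher, 4 lower and median 0.45 after length correction, and 39 higher, 3 lower and median 0.41 with GC content added. Without library 2 of whole midbrain, length correction gave 7 lower and median 0.44, and TPM 6 lower and median 0.61. Of the genes without a copy or exon overlap 8 were higher and 0 lower. With each library left out in turn, 74 to 79 were higher, 1 to 2 lower and the median 1.13 to 1.40. Of all 12959 to 13197 genes tested in those fits, 4699 to 5654 were higher and 4445 to 4974 lower. The labels do not say that replicate numbers pair the libraries. Deviations from the group means of same-numbered libraries had correlations from -0.0498 to 0.0190 over genes. Such deviations balance around 0 within a group of few libraries, so these values cannot decide whether libraries were paired. A replicate block gave 73 higher, 1 lower and median 1.16, with Rps4x and Rpl5 not passing among the named genes. Of all 13106 genes tested, that block gave 4554 higher and 4355 lower.

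Of all genes tested, 38.1% were higher and 31.3% lower after quantile normalization. The shares were 15.8% and 58.6% with TPM, and 35.6% and 35.2% after length correction. With upper-quartile scaling 3872 of 13106 genes were higher and 5673 lower. Library weights gave 5704 higher and 5102 lower of 13106, and length and GC correction 4431 higher and 4277 lower of 12417. Mitochondrial ribosomal proteins had median 1.02 after quantile normalization, 1 lower and median 1.12 with upper-quartile scaling, 6 lower and 0.69 with TPM, 2 lower and 0.80 after length correction, and 2 lower and 0.73 with GC added. Translation factors had 19 higher, 11 lower and median 0.13 after quantile normalization, 10 higher, 19 lower and -0.10 with TPM, and medians of 0.36, 0.40 and 0.45 with upper-quartile scaling, length, and length and GC correction. Assembly factors had 17 higher, 21 lower and median -0.092 with upper-quartile scaling, 5 higher, 42 lower and -0.54 with TPM, 4 lower and 0.35 with a minimum mean of 5 FPKM, medians of 0.20, 0.21, -0.013 and 0.034 with median centring, library weights, length, and length and GC correction, and 0.079 to 0.21 with each library left out. Proteasome subunits had 19 higher, 4 lower and median 0.36 after quantile normalization, 14 higher, 8 lower and 0.061 with TPM, medians of 0.52, 0.35 and 0.41 with upper-quartile scaling, length, and length and GC correction, each with 1 lower, as also with no filter and library weights, and 0 to 1 lower with each library left out.

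Over 31 named genes and 746 comparisons with an alternative, 664 kept direction and call, 37 lost the call, 22 gained one and 23 turned sign. The log2 fold changes that turned were, after quantile normalization, -0.20 for Rps29, -0.44 for Rpsa, -0.14 for Rpl3, -0.67 for Rps4x, -0.37 for Rpl5, -0.030 for Rpl11 and -0.13 for Rps6. With upper-quartile scaling Rpsa was at -0.011. With TPM, Rpsa was at -0.47, Rps4x at -0.26 and Rpl5 at -0.33, and without library 2 at -0.27, -0.24 and -0.33. Length correction gave -0.0047 for Rpsa, -0.39 for Rps4x and -0.12 for Rps6, and without library 2 -0.42 for Rps4x and -0.10 for Rps6. With GC content added, Rps29 was at -0.013, Rps4x at -0.28, Rps4l at -0.17 and Rps6 at -0.073. The log2 ratio of Rpl7l1 to Rpl7 turned to 0.89 after quantile normalization, and that of Rps27l to Rps27 to 0.13 with Rps27rt added to Rps27. The cause of these changes was not tested. Mean shares of the summed FPKM moved by less than 1 SD under the alternatives run.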
